A study of Mesocricetus auratus with 6 samples.

Results

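The cytosolic chaperonin, known as CCT or TRiC, was followed in the pregnant hamster uterus through all its subunit genes: Tcp1, Cct2, Cct3, Cct4, Cct5, Cct6a, Cct6b, Cct7 and Cct8. Its members were the probe sets to which the annotation of the array gives exactly 1 gene symbol that is one of these 9 names. There were 24 such probe sets out of 22626 tested, for 9 of 12393 genes. The arrays were 3 of embryo implantation sites and 3 of interimplantation sites, the uterine segments without an embryo, of untreated Syrian golden hamsters (Mesocricetus auratus). All were taken on day 5 of pregnancy, with RNA taken from 3 different animals. Whether the same animals gave both kinds of site is not stated. The animals' ages are not given in the labels, nor is it said whether the embryo was removed or whether the tissue layers were separated. The family was selected from results of this same comparison, the differences in signal between the 2 kinds of site, so these differences and their calls are a description and support nothing by themselves.

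The chaperonin is a barrel of paralogous subunits stacked as a pair of rings, and each position of a ring is taken by a different subunit. It encloses newly made proteins and folds them in cycles driven by ATP. Actins and tubulins are its best known clients, and the prefoldin complex hands these clients over to it. Cct6b is a paralogue of Cct6a known chiefly from testis. Cells that grow and divide are known to need much of the complex, and the uterine stroma around an attached blastocyst grows and divides.

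At the implantation site 6 of the 9 subunit genes rose, each represented by its probe set with the highest mean over the 6 arrays. These were Cct7 (1.62-fold), Cct8 (1.56-fold), Cct3 (1.56-fold), Cct4 (1.52-fold), Cct5 (1.49-fold) and Tcp1 (1.37-fold), and in all 6 the groups did not overlap. Cct2 lay at 0.25 on the log2 scale, Cct6a at 0.11 and Cct6b at −0.089, with overlapping groups and no call. The median of the 9 differences was 0.58, where the median of all genes was −0.020. A call is an adjusted p under 0.05 in limma's test across all 22626 probe sets with Benjamini-Hochberg adjustment. Of all genes 1.36% were called higher by this rule and 1.18% lower, and the groups did not overlap, with the implantation site higher, in 8.02%. Nothing is read from the gap between these shares and the family's, since the family was selected from the same contrast. No subunit gene was called lower with limma, and none reached an unadjusted p under 0.05 in that direction.

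Values are log2 signals after robust multi-array averaging (RMA), 1 per probe set and array. The probes were designed on mouse sequence, so a mismatch with hamster RNA can dim a probe set and shrink its difference, and the brightness of a probe set is not read here as the abundance of its transcript. All 9 symbols are also symbols of the hamster RefSeq annotation (BCM_Maur_2.0). The median signal of an array ran from 4.55 to 4.57, and the number of arrays limits the precision. Of the uterine markers, 7 of 12 of stroma and decidua, 5 of 13 of epithelium and 4 of 10 of smooth muscle were brighter than the brightest probe set (5.79) among 27 that detect Bacillus transcripts and serve as controls without a hamster counterpart. The Hox genes Hoxa10 and Hoxa11, which mark the uterine stroma, were among them (means 6.14 and 7.34). Of 7 measured trophoblast and embryo markers only Hand1 was. The epithelial markers Krt8, Cldn7 and Sox17 passed only through the interimplantation group, with implantation means of 5.73, 5.71 and 5.56. Nothing is read from the epithelial count.

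**Figure D1:**
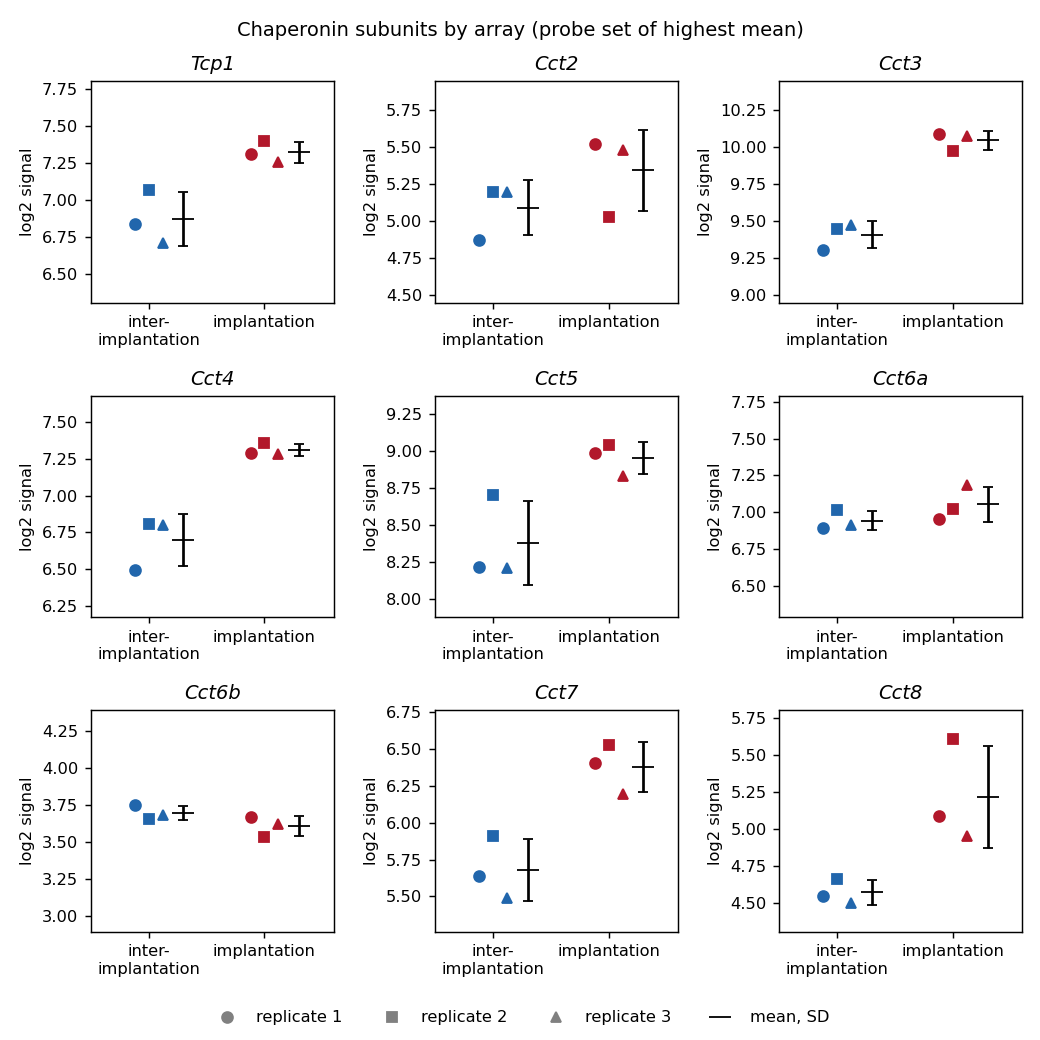
Log2 signal of each subunit gene (vertical axes, each spanning 1.5 log2 units) on the 3 interimplantation arrays (blue) and the 3 implantation arrays (red), with the mean and SD as black bars. The red and blue points are apart for Tcp1, Cct3, Cct4, Cct5, Cct7 and Cct8 and overlap for Cct2, Cct6a and Cct6b.

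Cct3, the gamma subunit, gave the family's smallest adjusted p. By its brightest probe set it measured 10.09, 9.97 and 10.07 on implantation arrays 1, 2 and 3, and 9.30, 9.44 and 9.47 on the interimplantation arrays. The lowest implantation array was 0.50 above the highest interimplantation array, the widest gap of the 6 called genes. The means were 10.04 ± 0.064 and 9.41 ± 0.092 (SD, n = 3), a difference of 0.64 (SE 0.085, 95% interval 0.45 to 0.82, limma adjusted p = 0.00249).

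Cct4, the delta subunit, measured 7.29, 7.36 and 7.28 at the implantation sites and 6.50, 6.80 and 6.80 between them. The implantation arrays were close to one another (SD 0.042, n = 3), while interimplantation array 1 was well under the other interimplantation arrays. The difference was 0.61 (SE 0.098, limma adjusted p = 0.00615), and the gap between the groups 0.48.

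Cct7, the eta subunit, had the largest difference of the 9, at 0.70 (SE 0.12, 95% interval 0.44 to 0.95, limma adjusted p = 0.00915). It measured 6.40, 6.53 and 6.19 on the implantation arrays and 5.64, 5.91 and 5.49 on the interimplantation arrays. Array 2 was the highest within either group. The lowest implantation array was 0.29 above the highest interimplantation array.

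Cct8, the theta subunit, measured 5.09, 5.61 and 4.95 at the implantation sites against 4.55, 4.66 and 4.50 between them. Its increase of 0.64 (SE 0.14, limma adjusted p = 0.0373) came with the widest spread of the called genes within the implantation group (SD 0.35, n = 3), because array 2 was high. Without that array the difference was 0.45 and was not called (adjusted p = 0.0630).

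Cct5, the epsilon subunit, measured 8.99, 9.04 and 8.83 at the implantation sites and 8.21, 8.70 and 8.21 between them. Interimplantation array 2 came within 0.13 of the lowest implantation array, the narrowest gap of the called genes, and the interimplantation SD was 0.28 (n = 3). The difference was 0.58 (SE 0.13, limma adjusted p = 0.0374). Without interimplantation array 2 it was 0.74 (adjusted p = 0.0040). In the other fits that leave out an array Cct5 was not called (limma adjusted p up to 0.159).

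Tcp1, the alpha subunit that gave the complex its older name, measured 7.31, 7.40 and 7.26 at the implantation sites and 6.84, 7.07 and 6.71 between them. Its difference of 0.45 (SE 0.10, limma adjusted p = 0.0399) was the smallest of the 6 called. The closest arrays of the groups were 0.19 apart.

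The other subunits showed smaller differences. Cct2, the beta subunit, measured 5.52, 5.03 and 5.48 at the implantation sites and 4.87, 5.20 and 5.20 between them, so that implantation array 2 was below 2 of the interimplantation arrays. Its difference of 0.25 had a 95% interval from −0.040 to 0.55, which holds values as large as that of Tcp1. Cct6a, the zeta subunit, measured 6.95, 7.02 and 7.18 against 6.90, 7.02 and 6.92. Its interval ran from −0.083 to 0.30. Cct6b measured 3.67, 3.53 and 3.62 against 3.75, 3.66 and 3.68, with an interval from −0.27 to 0.090. Whether these 3 subunits differ from the other 6 was not tested, since the contrast that would serve is the one from which the family was selected.

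Over all 24 probe sets, 10 were called higher and 0 lower with limma, where 2.31% of all probe sets were called, 1.26% higher and 1.05% lower. By unadjusted p under 0.05, 12 were higher and 0 lower, where 5.63% of all probe sets were higher and 8.35% lower. The groups did not overlap in 13, all with the implantation site higher, where 7.62% of all probe sets did so. The difference was above 0 in 19 of the 24 (43.5% of all probe sets). The median difference was 0.27, where that of all probe sets was −0.020.

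All 6 probe sets of Cct3 were positive with groups that did not overlap, and 5 were called, from 0.49 to 1.01. The largest was 1459987_s_at, which measured 8.58, 8.76 and 8.53 at the implantation sites and 7.38, 7.73 and 7.72 between them, a 2.02-fold increase (limma adjusted p = 7.56e-04). Counted down from the most positive difference, it was number 23 of 22626. The probe set 1451915_at rose 1.72-fold (adjusted p = 0.00121). The dimmest of the 6, 1449645_s_at, was at 0.29 and was not called (limma adjusted p = 0.114).

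The probe sets of Cct4 were less alike. Besides the called probe set, its 5 other probe sets lay between −0.082 and 0.15 and none was called. These 5 had means of 2.26 to 3.78, under the brightest Bacillus control. When its 6 probe sets were averaged, Cct4 was at 0.12 with no call (limma adjusted p = 0.463 over 12393 genes).

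For Cct7 the second probe set, 1415817_s_at, was at 0.38 with groups that did not overlap and no call (limma adjusted p = 0.128). For Cct8 the second, 1436973_at, was at −0.063, and with both averaged the gene lay at 0.29 with no call (adjusted p = 0.131 over 12393 genes). The 3 probe sets of Cct2 were at 0.25, 0.12 and 0.045, and the 2 of Cct6a at 0.11 and 0.13. Tcp1, Cct5 and Cct6b each had a single probe set, so their values have no second reading on this array.

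**Figure D2:**
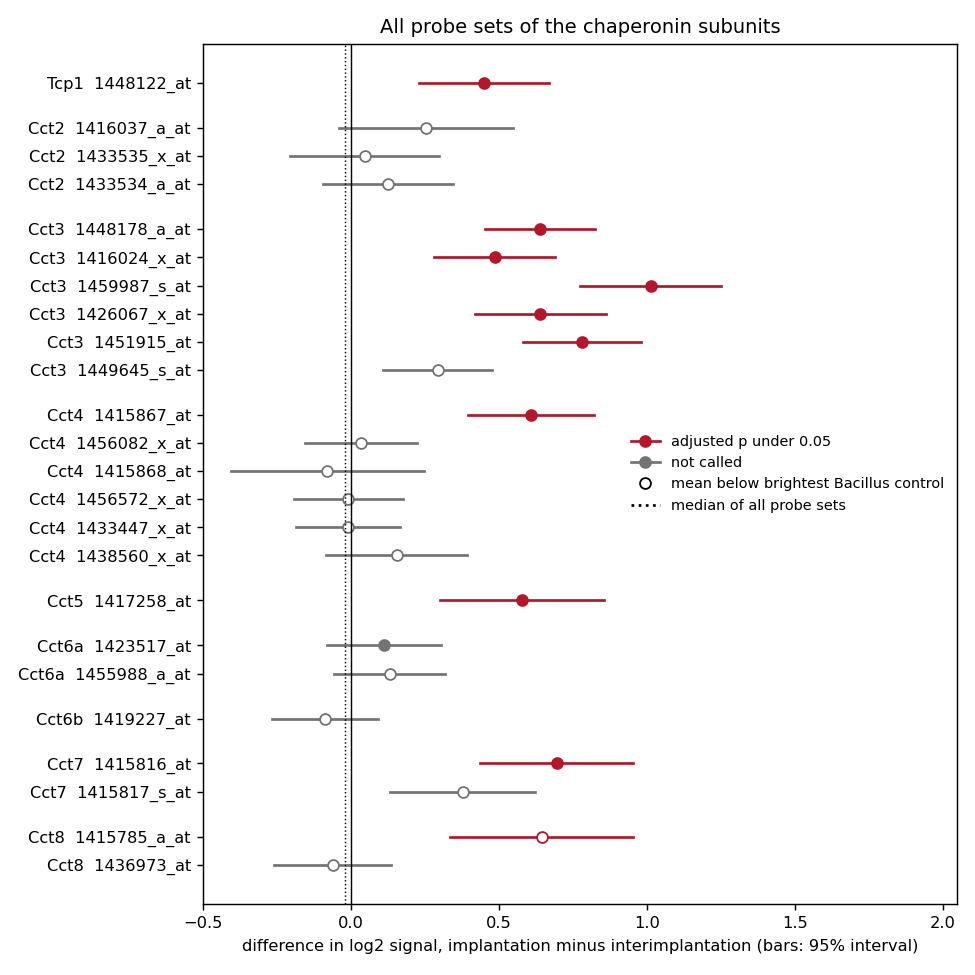
Difference in log2 signal (horizontal axis, implantation minus interimplantation) for all 24 probe sets of the subunits, each with its 95% interval, red where the adjusted p was under 0.05. Open circles mark the 14 probe sets dimmer on average than the brightest Bacillus control, of which 1 was called, against 9 of the 10 filled ones. Nothing is read from these counts, since Cct7 1415816_at is filled only through its implantation arrays (mean 6.38, against 5.68 between the sites).

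By the mean over all 6 arrays, 10 subunit probe sets were brighter than the brightest Bacillus control, and 9 of these were called higher, the exception being Cct6a. Cct7 1415816_at was above it at the implantation sites (mean 6.38) and below it between them (mean 5.68), so it passed through the group in which it was high, and nothing is read from the count of those that passed. Of the 14 dimmer ones 1 was called, the Cct8 probe set 1415785_a_at. Among all probe sets brighter than that control, 4.02% were called higher. A dim probe set may be dim through mismatches with the hamster transcript, which was not tested.

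To compare the arrays, each gene was centred on its mean over the 6 arrays. The median of the 9 genes was 0.28, 0.30 and 0.17 on implantation arrays 1, 2 and 3, and −0.34, −0.028 and −0.25 on the interimplantation arrays. Interimplantation array 2 was the nearest to the implantation arrays: 8 of the 9 genes were above their group mean there, against 1 on array 1 and 3 on array 3. The lowest value of a gene fell on interimplantation array 1 for 4 genes and on interimplantation array 3 for 4 more, and for Cct6b on implantation array 2. On implantation array 2, 5 genes had their highest value.

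As a description over the 6 arrays, which fall into 2 groups, each gene was correlated with the mean standardised profile of the other 8. Pearson's r was 0.95 for Cct3, 0.94 for Cct4, 0.93 for Tcp1 and Cct5, 0.91 for Cct7 and 0.73 for Cct8. It was 0.57 for Cct6a, 0.56 for Cct2 and −0.77 for Cct6b. These values carry the difference between the groups, so they restate which genes differed. Outside the family, the 5 genes whose brightest probe set was most like the mean profile of the 9, out of 12393 genes compared over 6 arrays, were Slc25a11 (r = 0.997), Sars (r = 0.994), Bzw2 (r = 0.994), Wnt4 (r = 0.993) and Fbln1 (r = 0.993). Slc25a11 is a carrier of the inner mitochondrial membrane, Sars a seryl-tRNA synthetase, Wnt4 a signal of the uterine stroma and Fbln1 a matrix protein. Their differences ran from 0.25 for Sars, which was not called, to 0.68 for Fbln1.

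**Figure D3:**
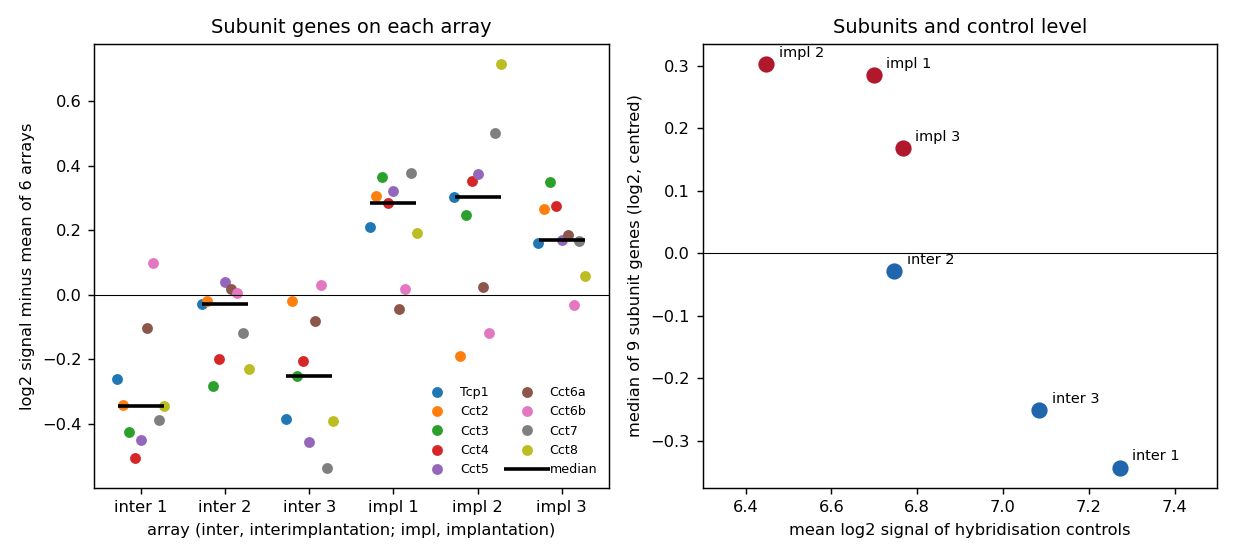
Left, log2 signal of the 9 subunit genes on each array after subtracting the gene's mean over 6 arrays, with black bars at the medians, which ran from −0.34 on interimplantation array 1 to 0.30 on implantation array 2. Right, the same medians (vertical axis) against the mean log2 signal of the hybridisation controls (horizontal axis), with implantation arrays red and interimplantation arrays blue.

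The signal of the hybridisation controls tended to be lower on the arrays where these medians were higher. These controls are bacterial and phage transcripts added before hybridisation, with 18 probe sets here. They averaged 6.70, 6.45 and 6.77 on implantation arrays 1, 2 and 3 and 7.27, 6.75 and 7.08 on the interimplantation arrays. The array with the dimmest controls had the highest subunit median and that with the brightest controls the lowest, and interimplantation array 2, nearest to the implantation arrays by its subunits, had the dimmest controls of its group. Implantation array 3 went the other way: its controls were brighter than those of interimplantation array 2, yet its subunit median was higher (0.17 against −0.028). With the control level as a covariate in limma, 0 of the 9 subunit genes were called and 3 had an unadjusted p under 0.05. The differences were then 0.62 for Cct3 (adjusted p = 0.0503), 0.43 for Cct4 (0.149), 0.42 for Cct7 (0.194), 0.34 for Cct8 (0.420), 0.26 for Tcp1 (0.409) and 0.23 for Cct5 (0.472), all still positive. The covariate follows the groups in part and uses up 1 degree of freedom. Of the 24 probe sets, 2 were still called, the Cct3 probe sets 1459987_s_at (adjusted p = 0.0247) and 1451915_at (adjusted p = 0.0433). Scaling each array to the controls instead raised the median of all probe sets to 0.38 and that of the subunit probe sets to 0.67, so the directions given here are those against the whole array.

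The calls also rested on single arrays to different degrees. Without implantation array 1, 2 or 3 the called subunit genes numbered 2, 2 and 4, and without interimplantation array 1, 2 or 3 they numbered 4, 5 and 3. Cct3 and Cct4 were called in all 6 of these fits (highest limma adjusted p 0.0212 and 0.0385). Cct7 was called in 4 of them, Cct8 in 2, and Tcp1 and Cct5 in 1 each, the fit without interimplantation array 2. The differences of the 6 genes remained positive in every one of these fits, from 0.37 for Tcp1 to 0.81 for Cct7.

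**Figure D4:**
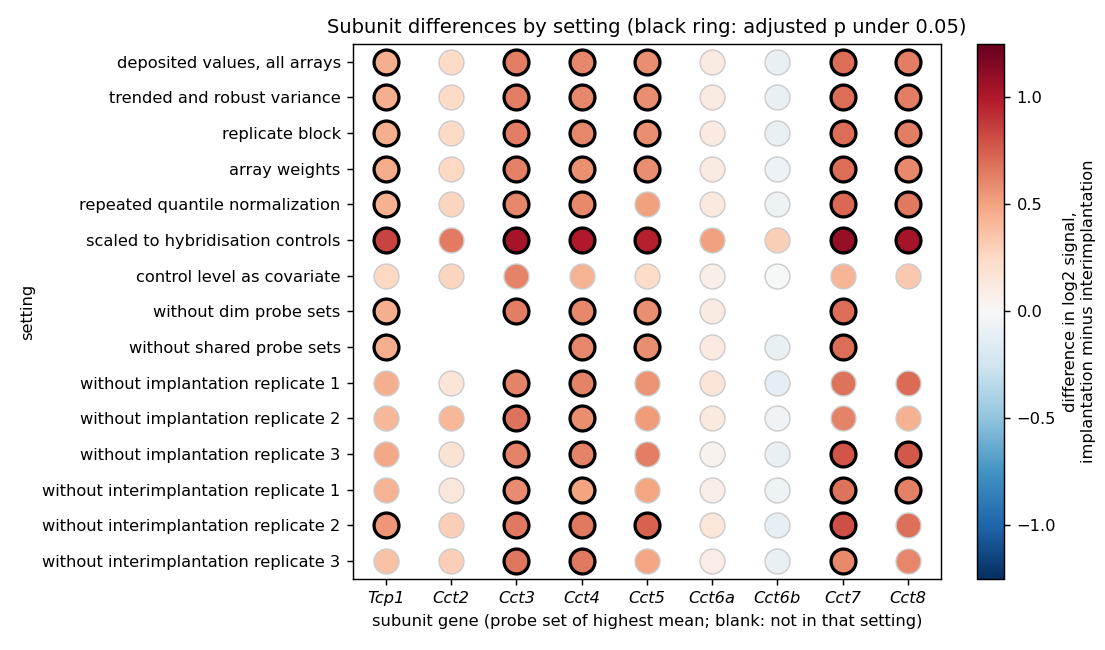
Difference in log2 signal (colour) of each subunit gene (columns) under each setting of the analysis (rows), with a black ring where the adjusted p was under 0.05. Cct3 and Cct4 have rings in every fit that leaves out an array, and no gene has one with the control level as a covariate.

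Markers of other cell types differed between the same arrays. In bulk tissue, fewer cells of a type and less RNA per cell cannot be told apart. With limma 1.36% of all genes were called higher and 1.18% lower, the shares to set beside the marker calls that follow. Of 10 smooth muscle markers 2 fell and 0 rose, and their summed log2 signal was 52.9 to 55.4 at the implantation sites against 57.7 to 60.1 between them. Of 13 epithelial markers 4 fell and 0 rose (66.7 to 68.4 against 72.2 to 73.6). Of 19 cell cycle genes 5 rose and 0 fell (92.8 to 93.8 against 87.0 to 88.9). The 5 were Rrm1, Mcm7, Pcna, Mcm5 and Cdk1. The median of all 19 differences was 0.12, with 16 above 0. Mki67 lay at 0.023 and Top2a at 0.027, both uncalled. By unadjusted p under 0.05, 6 of the smooth muscle markers and 7 of the epithelial ones were lower and none was higher, and 8 of the cell cycle genes were higher and none lower, where 6.14% of all genes were higher and 8.67% lower. Of 11 leukocyte, 7 endothelial and 3 erythroid markers none was called with limma (by unadjusted p under 0.05, 1 leukocyte marker was higher, and 1 endothelial and 1 erythroid marker lower). Of 12 markers of stroma and decidua 1 rose, Wnt4, and 0 fell (by unadjusted p under 0.05, 2 were higher and 1 lower). The part of these differences in the subunit values was not tested.

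Genes that work with the chaperonin were described by list. For every list below, the shares over all genes were 1.36% called higher and 1.18% called lower with limma. By limma's unadjusted p under 0.05 they were 6.14% higher and 8.67% lower. Prefoldin and the phosducin-like proteins, which deliver clients or regulate the complex, were measured by 12 genes, of which 0 rose and 1 fell, with a median of 0.044 (by unadjusted p under 0.05, 1 was higher and 1 lower). The gene that fell was Pfdn5, a prefoldin subunit, at 6.22, 6.35 and 6.24 on the implantation arrays and 6.52, 6.89 and 6.90 on the interimplantation arrays (difference −0.50, SE 0.11, limma adjusted p = 0.0342). Of the 6 fits that leave out an array, the one without interimplantation array 1 kept its call (adjusted p 0.0806 to 0.157 in the others), and with scaling to the controls it lay at −0.10 (adjusted p = 0.651). Of its 4 other probe sets 1415736_at was at −0.35 and the rest between 0.089 and 0.15, with none called. Pfdn6, another prefoldin subunit, was at 0.29 with groups that did not overlap and was not called (adjusted p = 0.152). Of the 7 tubulin folding cofactors, which take over tubulin after the chaperonin, none was called with limma (by unadjusted p under 0.05, 1 was higher and 2 lower), and the median was 0.0089.

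Among 17 actins, actin-related proteins and tubulins, the main clients, 2 rose and 2 fell, with a median of 0.20 (by unadjusted p under 0.05, 7 were higher and 2 lower). Tubb5, a widely expressed beta tubulin, measured 9.12, 9.21 and 8.93 at the implantation sites and 8.12, 8.55 and 7.82 between them (0.92, SE 0.15, limma adjusted p = 0.00751), and its other probe set was at 0.25 with no call. Actg1, the cytoplasmic gamma actin, rose by 0.49 (adjusted p = 0.0134). Actb, the cytoplasmic beta actin, was at 0.23 with overlapping groups and no call (adjusted p = 0.464). Tubb4b was not called by its brightest probe set (0.27), but its probe set 1423642_at rose by 0.79 (limma adjusted p = 0.0102). The rest of its probe sets lay between −0.16 and 0.26 with no call. Actr3, an actin-related gene, was at 0.35 with no call, but its probe set 1434968_a_at rose by 0.41 (adjusted p = 0.0243). Another probe set of Actr3 was at 0.088 with no call. Tubb2a fell by 0.57 (adjusted p = 0.0117) in a probe set of mean 3.74, under the brightest Bacillus control. Its other probe set was at −0.041. Actg2, an actin of smooth muscle, fell by 1.74 (adjusted p = 0.00621), and is itself one of the smooth muscle markers. The call of Tubb5 was lost without implantation array 1 or 2 (adjusted p = 0.0501 and 0.0511), that of Actg1 without implantation arrays 1 and 3 and interimplantation array 2 (0.0828, 0.0830 and 0.0503) and that of Tubb2a without implantation arrays 1 and 3 (0.0833 and 0.0620). Tubb2a was also not called with scaling to the controls (−0.17, adjusted p = 0.456), and Actg2 not under the trended, robust variance model (adjusted p = 0.153). In the covariate fit Tubb5, Tubb2a and Actg2 were not called (adjusted p = 0.177, 0.159 and 0.0583). Of 12 other clients, among them G protein beta subunits and the mitotic activator Cdc20, none was called with limma (by unadjusted p under 0.05, 3 were higher and 0 lower), and the median was 0.065.

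Of the other chaperones, Hspd1 and Hspe1 rose, the subunit and the lid of the chaperonin of mitochondria. Hspd1 measured 7.49, 7.30 and 7.38 at the implantation sites and 6.71, 6.89 and 6.76 between them, a difference of 0.61 (SE 0.089, limma adjusted p = 0.00385). Hspe1 rose by 0.58 (adjusted p = 0.00413), and its second probe set by 0.40 (adjusted p = 0.0407). This second probe set had a mean of 5.40, under the brightest Bacillus control. Both brightest probe sets kept their calls without any single array and lost them in the covariate fit (adjusted p = 0.0809 and 0.0653). The other 5 genes of the mitochondrial list were not called, and the median of all 7 was 0.083 (by unadjusted p under 0.05, 3 were higher and 0 lower).

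In the cytosolic Hsp70 and Hsp90 system 3 of 24 measured genes rose and 0 fell, with a median of 0.095 (by unadjusted p under 0.05, 8 were higher and 0 lower). These were Hsp90aa1 (1.10, limma adjusted p = 0.00249), the Hsp90 cochaperone Fkbp4 (0.70, adjusted p = 0.00249) and Ahsa1, which stimulates the ATPase of Hsp90 (0.52, adjusted p = 0.00853). The other probe set of Fkbp4 was at −0.13 with no call, while both other probe sets of Hsp90aa1 rose, by 0.70 and 0.41. The one at 0.41 had a mean of 3.90, under the brightest Bacillus control. Hspa4 was not called by its brightest probe set (−0.028), but its dimmer probe set 1416146_at rose by 0.64 (limma adjusted p = 0.0371). The mean of 1416146_at was 3.57, under the brightest Bacillus control. Another probe set of Hspa4 was at −0.11 with no call. Ahsa1 was not called when implantation array 1 was left out (adjusted p = 0.0560), and Fkbp4 and Ahsa1 lost theirs in the covariate fit (adjusted p = 0.0716 and 0.123). Hspa8, the constitutive Hsp70 that passes clients to the chaperonin, was at 0.25 with overlapping groups and no call (adjusted p = 0.386). Its other probe sets were at 0.29, 0.095 and −0.080 with no call, the first with groups that did not overlap. The heat shock factor Hsf2 was at −0.11 and Mkks, a chaperonin-like gene of the primary cilium, at −0.057, both uncalled. Hsf1 was not analysed here.

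**Figure D5:**
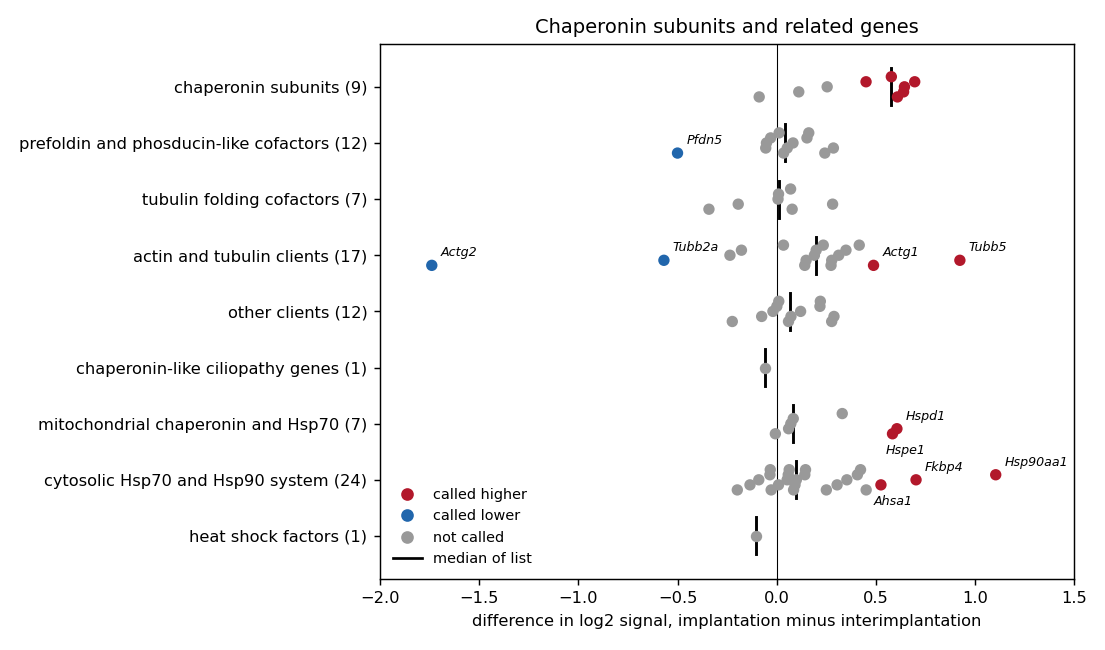
Difference in log2 signal (horizontal axis, implantation minus interimplantation) of each gene by its brightest probe set, for the subunits and 8 lists of related genes (measured genes in brackets), with black bars at list medians. The subunit median was 0.58, and those of the other lists lay between −0.11 (Hsf2 alone) and 0.20. Nothing is read from this gap, since the subunits were selected from the same contrast.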

How the data were processed

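The deposited table held log2 values of 6 arrays, RMA signals of the authors, with Partek 6.6 and RMA named in the submitters' processing notes. The log base is not stated and was taken as 2 from RMA's usual output and the range of the values (1.74 to 12.38). Of 22690 probe sets, 64 controls were left out. Of the rest, 20380 had 1 gene symbol in the platform annotation, 691 several and 1555 none. Groups came from the sample titles.

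Implantation was compared with interimplantation by limma 3.58.1 under R 4.3.3 (eBayes after lmFit, two-sided, Benjamini-Hochberg over 22626 probe sets, no filter), tested on simulated data. The probe set of highest mean stood for its gene. Named were all subunit probe sets, up to 4 called members of each related list, fixed reference genes and the 5 genes most like the family. Other probe sets and uncalled genes beside these were chosen after their values were seen. The members and lists were chosen with earlier results of these data known. The labels do not say whether same-numbered arrays come from 1 animal. Deviations of same-numbered arrays from their group means correlated at −0.090, 0.071 and −0.028 over all probe sets, which does not show whether they share one, and the numbers were not treated as pairs. Alternatives were the variance model, a replicate block, array weights, normalization, the hybridisation controls, dim or shared probe sets, the probe set of a gene and leaving out each array. No sequences or genome positions were used here.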

Additional observations from a re-analysis of the deposited data

How the results depend on the processing

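No subunit probe set was called lower under any alternative run. The calls numbered 10 probe sets and 6 genes with the replicate number as a block, with array weights and with a trended and robust variance, and the block changed no call of a subunit probe set. Repeated quantile normalization gave 9 probe sets and 5 genes, with Cct5 not called (adjusted p = 0.0518) and at 0.52. With the control level as a covariate 2 probe sets and 0 genes were called. Without probe sets that share transcripts or genes (names ending in _a_at, _s_at or _x_at), 5 of the 9 left were called and the median difference was 0.45. Without dim probe sets it was 0.62, and with scaling to the hybridisation controls 0.67. In the first 2 of these, fewer members were tested, and the scaling adds 0.40 to every difference. Cct7 1415816_at passed the dim filter only through its implantation arrays (mean 6.38, against 5.68 between the sites). Nothing is read from the median of 0.62. Leaving out 1 array gave 5 to 8 called probe sets, 2 to 5 called genes and medians of 0.22 to 0.32. Averaging the probe sets of each gene gave 4 called genes. Of all results that turned sign (19 in all, none called), the scaling gave 0.32, 0.39 and 0.39 for the Cct4 probe sets 1415868_at, 1456572_x_at and 1433447_x_at, 0.31 for Cct6b and 0.33 for Cct8 1436973_at. Cct4 1456572_x_at was at 0.0039 with array weights and 0.0098 with repeated quantile normalization, and Cct4 1433447_x_at at 0.00011 with the latter and 0.047 with the covariate. Without single arrays the ranges were −0.046 to 0.17 for Cct2 1433535_x_at, −0.050 to 0.034 for Cct4 1456572_x_at, −0.035 to 0.020 for 1433447_x_at, −0.021 to 0.077 for 1456082_x_at and −0.25 to 0.10 for 1415868_at. Over all alternatives the Cct4 probe set 1415868_at ran more widely, from −0.56 to 0.32. Over all 22626 probe sets the share called higher ran from 0.34% with the covariate to 3.32% with the scaling, with 13 called lower there in place of 238.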
